A study of Mus musculus with 6 samples.

Results

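The genes described here are 34 genes of the interferon response and of antigen presentation by MHC class I, chosen by name and matched on their symbol among the 27179 genes of the count table. All 34 were found, and all 34 passed the filter on low counts, which kept 14855 genes. They were compared between CD34 negative and CD34 positive cancer-associated fibroblasts (CAFs) by bulk RNA sequencing of 6 libraries, 3 per group. The cells came from 3 mammary tumors of raGFP-Wnt1 mice. These carry the MMTV-Wnt1 transgene, in which a mammary tumor virus promoter drives Wnt1 in the mammary epithelium, and 1 copy of Pdgfra H2B-GFP, a knock-in that labels nuclei of Pdgfra-expressing cells with green fluorescent protein. The mice came from crossing C57BL/6 Pdgfra H2B-GFP mice with FVB/NJ MMTV-Wnt1 mice. The share of each strain in each tumor was not given. Both groups share the transgene and the reporter, and they differ in whether the sorted GFP-positive cells carried the surface protein CD34. Both fractions of a tumor bear the same tumor number, so libraries are called negative or positive 1, 2 and 3 after fraction and tumor. The ages of these mice were not given in the sources used here. Each group is a gate on 1 reporter and 1 surface protein, and no labels say how many cells a library held or whether the 3 tumors came from separate mice.

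Interferons are secreted proteins that signal through paired receptors and JAK kinases to STAT transcription factors. STAT2 and IRF9 belong to the complex that binds the interferon-stimulated response element (ISRE) of type I interferon targets, while interferon gamma acts largely through the gamma-activated site (GAS). Many targets restrict viruses, and others supply the class I pathway. There, the TAP1 and TAP2 transporter carries peptides into the endoplasmic reticulum, tapasin (Tapbp) bridges the transporter to class I molecules, and B2m is the light chain of these molecules. In fibroblasts, basal expression of both groups of genes is usual and interferon raises it.

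The sequences just upstream of a few members are shown first, because they differ in the letters that the pathway's factors recognise. RefSeq promoter windows of GRCm38.p6 were at hand for 27 of the 34 members, each with 250 bases before and 50 bases after a start that RefSeq lists. Of the 32 windows, since some members have 2, 19 began at the outer end of the gene's span and 13 inside it, by 19 bases in Oas1a and 410 bases in Ifit3. Bases before such an inner start can be transcribed. The ISRE core was searched as GAAANNGAAA and the GAS core as TTCNNNGAA, on both strands, and neighbouring matches may share bases. Of the 27 members, 15 (55.6%) held the ISRE core, against 3.99% of the 27025 genes with a window. The GAS core was in 7 of 27 members (25.9%), against 9.55% of genes. All 5 GTPases with a window and both RNA sensors held the ISRE core, as did 6 of 8 antiviral effectors. Of the 5 class I genes with a window, B2m alone held it, and none held the GAS core. The 2 H2-K1 windows had starts 272 and 286 bases inside the gene, so bases before its outer end were not searched. A match is a stretch of letters, not a shown binding site, and a window without one says only that these letters are absent from it. Capitals mark both cores in the upstream stretches of 3 antiviral genes, B2m and 2 class I genes whose values come later:
Oas1a (chr5:120907526-120907645, minus strand): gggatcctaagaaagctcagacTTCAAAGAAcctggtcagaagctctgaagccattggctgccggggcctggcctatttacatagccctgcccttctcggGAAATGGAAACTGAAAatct
Isg15 (chr4:156200819-156200938, minus strand): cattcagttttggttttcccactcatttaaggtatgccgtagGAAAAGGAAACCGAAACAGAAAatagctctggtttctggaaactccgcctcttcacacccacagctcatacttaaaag
Ifit1 (chr19:34640769-34640888, plus strand): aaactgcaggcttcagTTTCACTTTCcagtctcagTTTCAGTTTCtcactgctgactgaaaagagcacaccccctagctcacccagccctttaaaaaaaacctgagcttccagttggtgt
B2m (chr2:122147528-122147686, plus strand): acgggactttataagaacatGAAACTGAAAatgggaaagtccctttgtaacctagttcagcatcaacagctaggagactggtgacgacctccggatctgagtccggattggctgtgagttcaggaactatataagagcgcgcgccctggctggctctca
Tap1 (chr17:34187436-34187555, plus strand): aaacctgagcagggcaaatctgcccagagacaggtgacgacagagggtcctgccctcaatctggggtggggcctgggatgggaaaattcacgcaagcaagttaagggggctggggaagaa
Tapbp (chr17:33919358-33919477, plus strand): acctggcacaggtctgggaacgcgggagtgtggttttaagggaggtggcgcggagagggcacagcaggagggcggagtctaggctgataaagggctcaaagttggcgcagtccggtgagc

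In Oas1a, 2 overlapping ISRE cores lay between 20 and 5 bases before the start and a GAS core between 98 and 90 bases before it. Isg15 held 3 overlapping ISRE cores between 78 and 57 bases before the start, and Ifit1 held 2 separate ones. The members also share neighbourhoods. Of the class I genes, 5 lie on chromosome 17, from Tapbp (start 33919478) through H2-K1, Tap1 and Tap2 to H2-D1 (end 35267497). Ifit1, Ifit2 and Ifit3 are neighbours on chromosome 19, Gbp2, Gbp3 and Gbp7 on chromosome 3, and Mx1 and Mx2 on chromosome 16. RefSeq lists Mx1 and Mx2 as transcribed pseudogenes in this reference, which comes from C57BL/6.

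Library totals ranged from 16238059 to 86609267 counts, and negative library 3 had counts for the fewest genes, 14314 against 16253 to 19220 in the others. The fraction gate was visible in the RNA, since Cd34, the gene of the sorted protein, had a log2 fold change of -3.63 ± 0.44 (SE). The 6 fibroblast markers (Pdgfra, 3 collagens, Dcn and Lum) summed to between 68970 and 95377 CPM, the counts of a gene relative to library size, in every library. Sums over marker lists are scaled by library total alone, and CPM of single genes also by the TMM factor. The 15 leukocyte markers summed to 14.4 to 19.1 CPM in negative and 9.11 to 20.8 CPM in positive libraries, with Nkg7 at 0 and Ptprc at no more than 0.481 CPM. Among them the macrophage genes Lyz2, at 6.02 to 8.83 against 1.79 to 4.48 CPM, and Adgre1, at 0.664 to 0.770 against 0.0117 to 0.176 CPM, were higher in every negative than in every positive library. The T cell gene Cd3e had its higher values in positive libraries, at 0.0356 to 1.77 against 1.24 to 5.89 CPM. None of these 3 passed. Of the 8 leukocyte markers tested, 4 had a fold change above 0 and 4 below 0 in the fit with the tumor as block. Endothelial markers summed to 11.7 to 31.2 CPM in negative and 55.9 to 128 CPM in positive libraries. That gap lay in Tek, at 5.45 to 13.4 against 48.8 to 116 CPM, while Pecam1 was at 0.550 to 5.95 against 1.73 to 12.9 CPM and Cdh5 did not exceed 4.18 CPM. Epithelial markers summed to 135, 122 and 51.7 CPM in negative libraries 1, 2 and 3 and to 131, 76.9 and 17.9 CPM in the positive ones. The negative library was thus the higher in each tumor, and all 6 epithelial markers had a fold change above 0. Pericyte markers summed to 158 to 204 against 78.5 to 172 CPM, where Cspg4, Notch3 and Des rose and Abcc9 and Kcnj8 fell in CD34 negative CAFs with the block described below. The part of these other cells in the results below was not tested. In bulk RNA, fewer cells of a type and less RNA per cell cannot be told apart.

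Expression per length of transcript, in reads per kilobase of the gene and library size (RPKM) averaged over the 6 libraries, spanned from 0.278 to 1017 among the members. B2m led at 1017, followed by the class I heavy chains H2-D1 at 257 and H2-K1 at 225. Ifi27 (97.2), Irf1 (91.8), Bst2 (90.2) and Tapbp (86.7) came next, then the GTPases Gbp2 (42.4), Iigp1 (38.9) and Irgm1 (31.7). At the low end were Rsad2 (0.908), Nlrc5 (0.691), Mx1 (0.305) and Ifi44 (0.278). Mx1 rested on only 10 to 66 counts and Ifi44 on only 12 to 67 counts per library. The plot of levels shows this spread with the library of each value.

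**Figure D1:**
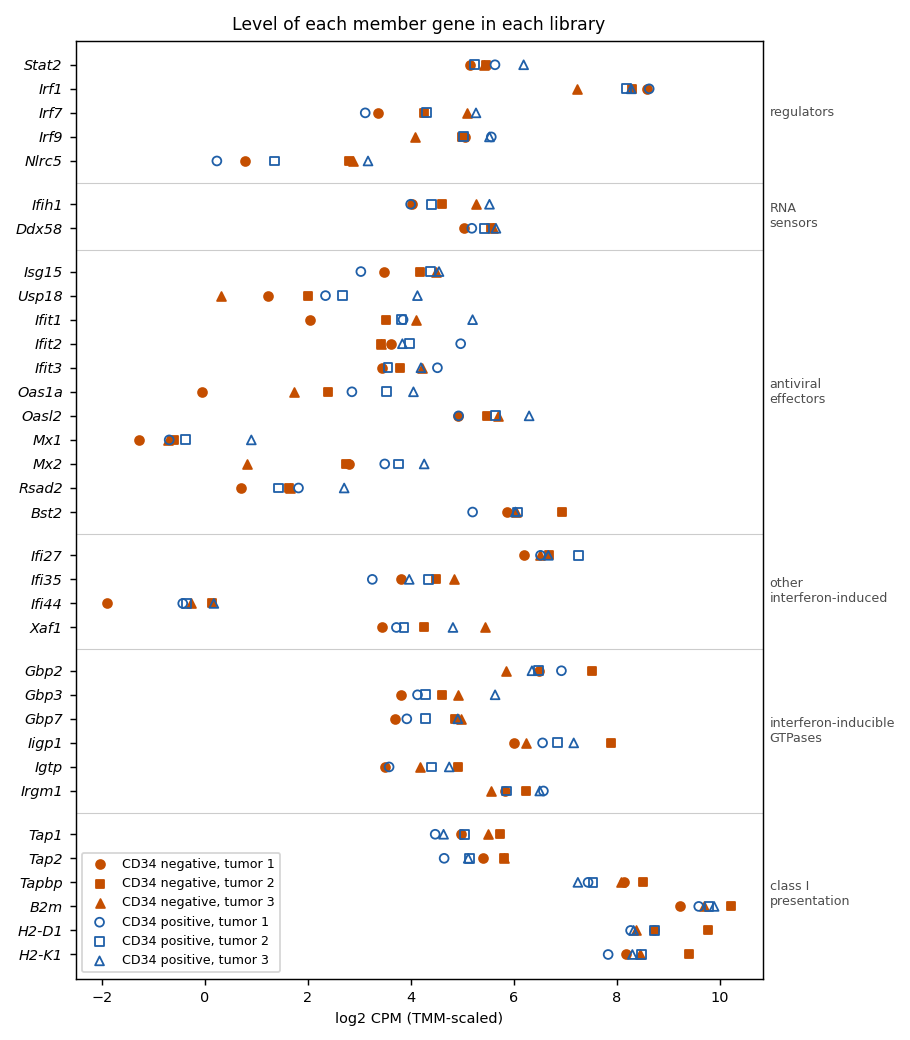
Level of each of the 34 members (rows, grouped by role) in each library, on the horizontal axis as log2 CPM scaled by library size and TMM factor. Filled orange marks are CD34 negative and open blue marks CD34 positive libraries, and the shape gives the tumor. For Tapbp and Tap2 every filled mark lies right of every open one, for Oas1a, Mx2, Usp18 and Ifit2 every filled mark lies left, and in the other 28 rows the groups overlap.

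Whether the interferon response or class I presentation differed between CD34 negative and CD34 positive CAFs was asked first. Without a term for the tumor, none of the 34 members passed an adjusted p of 0.05 in limma-voom, where 0.121% of all genes tested passed. edgeR called none either, beside 0.0606% of genes. DESeq2 called 3 (Oas1a, Usp18 and Tapbp), which is 9.38% of the 32 members it tested, beside 5.45% of 12809 genes. In limma-voom 5 members had an unadjusted p under 0.05, which is 14.7% of them beside 14.3% of all genes, so this share is near the background. These were Oas1a, Mx2 and Usp18, lower in CD34 negative CAFs, and Tap2 and Tapbp, higher. Because both fractions came from the same tumors, the fit was repeated with the tumor as a block. Then Tap1, Tap2 and Tapbp rose and Oas1a fell in CD34 negative CAFs. These 4 of 34 (11.8%) stand beside 8.57% of all genes tested, with 4.32% of genes higher and 4.25% lower. With the block, edgeR called 2 members (5.88%) beside 3.87% of genes, and DESeq2 called 7 (20.6%) beside 12.6% of genes. Without the low-count filter 1 member (2.94%) was called beside 3.93% of genes. Sample quality weights with the block, a fit chosen after seeing the data, gave 12 (35.3%) beside 19.5%. Leaving out tumor 1 gave 2 members (5.88%) beside 7.61% of genes. Without tumor 2 there were 8 (23.5%) beside 5.82%, and without tumor 3 there were 11 (32.4%) beside 13.0%. The count of called members and its distance from the background thus depended on the fit and on which tumors were in it.

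Class I presentation comprised 6 members, of which 5 had a fold change above 0, and 3 rose with the block. Their median log2 fold change was 0.55 without and 0.60 with the block, beside -0.03 and -0.01 over all genes tested. Without negative library 2 the median was 0.27. Tapasin was the member with the smallest adjusted p. Tapbp was at 283, 365 and 271 CPM in negative libraries 1, 2 and 3 and at 174, 186 and 152 CPM in the positive ones. The groups did not overlap, and the ratio was of like size in each tumor. Its log2 fold change was 0.84 ± 0.19 (SE, adjusted p = 0.105 in limma-voom) without the block and 0.84 ± 0.13 (adjusted p = 0.00475 in limma-voom), or 1.79-fold, with it. With the block it passed in all 9 alternatives, where adjusted p lay between 7.29e-07 and 0.0285.

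Tap1 and Tap2, the peptide transporter's subunits, moved alongside it. Tap2 was at 42.4, 55.8 and 55.8 CPM in negative and at 25.1, 35.4 and 34.7 CPM in positive libraries, again without overlap. Its log2 fold change with the block was 0.69 ± 0.15 (adjusted p = 0.0227 in limma-voom), against an adjusted p of 0.227 without the block. Tap1 was at 31.4, 52.9 and 45.0 CPM in negative and at 22.2, 33.0 and 24.9 CPM in positive libraries. Here negative 1 lay below positive 2, so the groups overlapped, while within each tumor the negative library was the higher. Tap1 had a log2 fold change of 0.70 ± 0.16 with the block (adjusted p = 0.029 in limma-voom) and 0.58 ± 0.26 without it (adjusted p = 0.359 in limma-voom). Both calls were lost with the block without tumor 2, where adjusted p was 0.255 for Tap1 and 0.190 for Tap2 in limma-voom. Tap2 was also lost without tumor 1 (0.0517 in limma-voom), and Tap1 in edgeR (0.0714). Without the low-count filter neither Tap1 nor Tap2 passed (0.0731 and 0.0598 in limma-voom). Their fold changes stayed at 0.61 or more in each fit with the block. Across the 9 alternatives with the block, Tap1 and Tap2 each passed in 6, with adjusted p from 0.00284 and 0.00132.

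The class I heavy chains were higher in the negative library of each tumor but did not pass in limma-voom on all libraries at equal weight. Both were called with the block with quality weights and without tumor 3. H2-D1 was at 421, 871 and 331 CPM in negative and at 309, 427 and 321 CPM in positive libraries. H2-K1 was at 290, 679 and 349 CPM against 228, 359 and 316 CPM. The gap was widest in tumor 2, where the log2 ratios were 1.03 and 0.92. The log2 fold changes with the block, 0.50 ± 0.18 and 0.47 ± 0.16, had adjusted p of 0.125 and 0.115 in limma-voom. B2m, at 600.5, 1199.6 and 828 CPM in negative and 772, 887 and 949 CPM in positive libraries, was lower in negative libraries of tumors 1 and 3 and higher in tumor 2. Its log2 fold change was -0.03 ± 0.26 without and -0.05 ± 0.16 with the block. H2-D1 and H2-K1 are close in sequence to each other and to further class I genes, and reads that match several of them could have been split in the authors' counting. Of the leukocyte markers, which split 4 above and 4 below 0 with the block, Lyz2 and Adgre1 were also higher on the CD34 negative side. Cd3e had its higher values on the CD34 positive side. The epithelial marker sums, given above, were higher in the negative library within each tumor. The endothelial sums went the other way, at 11.7 to 31.2 CPM in negative and 55.9 to 128 CPM in positive libraries. The part of such other cells in the class I values was not tested. Tapbp overlaps a lncRNA gene, Gm19412, which held 166 counts against 65185 over the 6 libraries.

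**Figure D2:**
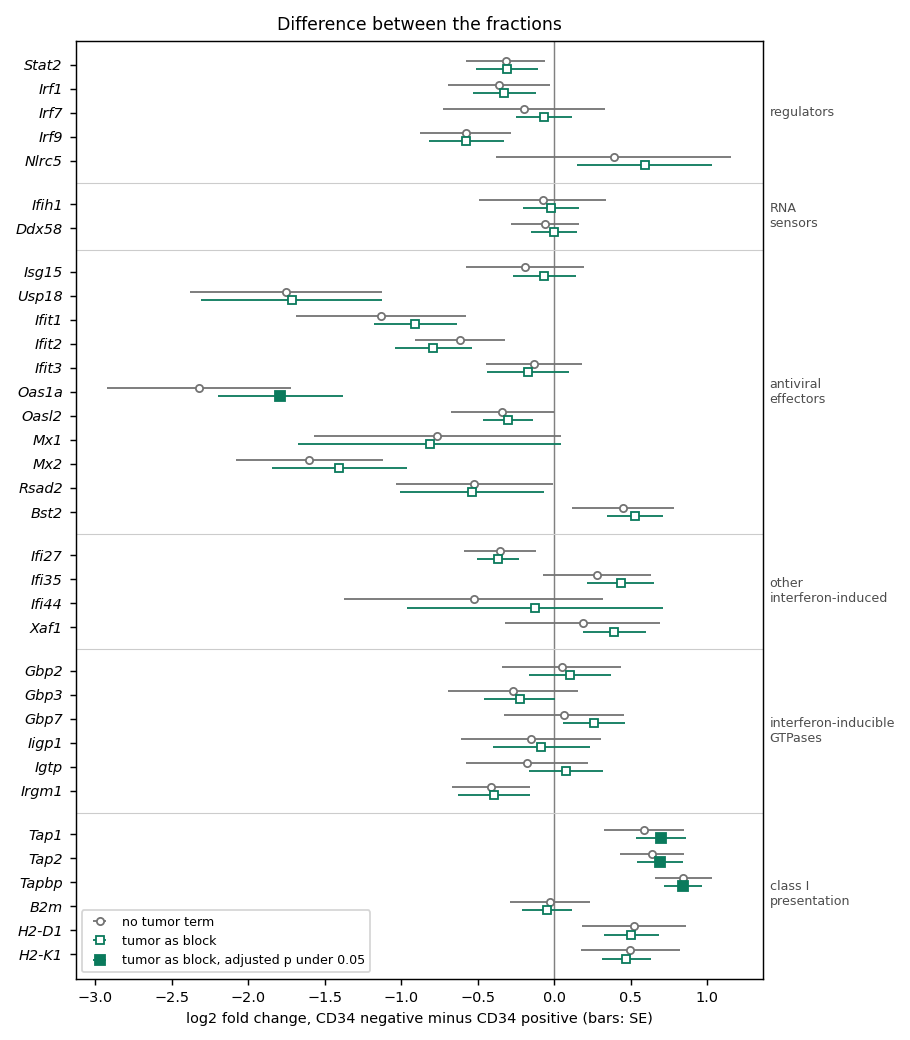
Log2 fold change of each member, CD34 negative minus CD34 positive (horizontal axis), with SE bars, from limma-voom without a tumor term (grey circles) and with the tumor as a block (green squares). Filled squares mark the 4 members with an adjusted p under 0.05 with the block. In all, 10 of the 11 antiviral effectors lie left of 0 and 5 of the 6 class I genes right of it, and the Tapbp bars are among the shortest.

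Antiviral effectors, mostly genes of proteins that block or tag viral products, comprised 11 members. The group includes Usp18, which removes ISG15, and Mx1 and Mx2, listed as transcribed pseudogenes. Of the 11, 10 had a fold change below 0. The median log2 fold change was -0.62 without and -0.79 with the block, and it was -1.31 without the block when tumor 2 was left out. Oas1a alone passed with the block. Oas1a encodes an oligoadenylate synthetase, which senses double-stranded RNA and switches on RNase L. It was at 0.961, 5.25 and 3.33 CPM in negative and at 7.24, 11.5 and 16.6 CPM in positive libraries, without overlap. The log2 fold change was -2.32 ± 0.60 without the block (adjusted p = 0.146 in limma-voom) and -1.79 ± 0.41 with it (adjusted p = 0.0268 in limma-voom). Oas1a kept its direction in each tumor, with log2 ratios of -2.91, -1.13 and -2.31. The call was lost with the block without tumor 1 (adjusted p = 0.0696 in limma-voom), without the low-count filter (0.0622 in limma-voom) and in edgeR (0.0511). Over the 9 alternatives with the block 6 passed, from an adjusted p of 0.000118. Oas1a belongs to a family of close copies, so its counts may include reads of these.

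Mx2, Usp18 and Ifit2 were also lower in every negative than in every positive library, without passing in limma-voom on all libraries at equal weight. With the block, Mx2 and Ifit2 were called with quality weights and without tumor 3, and Mx2 and Usp18 without tumor 2. DESeq2 called Mx2 and Usp18 with the block and Usp18 without it. Mx2, an interferon-induced dynamin-like gene, was at 6.96, 6.73 and 1.76 CPM in negative and at 11.3, 13.5 and 19.2 CPM in positive libraries. Usp18, which removes ISG15 from proteins and dampens receptor signaling, was at 2.33, 3.99 and 1.24 CPM against 5.08, 6.40 and 17.5 CPM. In both genes tumor 3 held the widest gap, with log2 ratios of -3.43 and -3.81, and negative library 3 was the lowest library. That library was also the one with counts for the fewest genes. Their log2 fold changes with the block were -1.40 ± 0.44 and -1.72 ± 0.59, at adjusted p of 0.0900 and 0.116 in limma-voom. Ifit2, an RNA-binding inhibitor of translation, had its widest gap in tumor 1, at 12.2, 10.8 and 10.7 CPM against 31.3, 15.7 and 14.3 CPM. Its log2 fold change with the block was -0.79 ± 0.25 (adjusted p = 0.0908 in limma-voom). These 4 genes without overlap on the low side are 11.8% of the members, where 10.1% of all genes were so, and Tap2 and Tapbp, on the high side, are 5.88%, where 10.4% of all genes were so.

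The remaining effectors did not pass in limma-voom on all libraries at equal weight either, while Ifit1 was called with the block by DESeq2, with quality weights and without tumor 2. Ifit1 was at 4.13, 11.4 and 17.1 CPM in negative and at 14.4, 14.2 and 36.8 CPM in positive libraries, with a log2 fold change of -0.91 ± 0.27 with the block (adjusted p = 0.0765 in limma-voom). The log2 fold changes with the block of Mx1 and Rsad2, both at 6.53 CPM or less in each library, were -0.82 ± 0.86 and -0.54 ± 0.47. Those of Oasl2 and Ifit3 were -0.30 ± 0.16 and -0.17 ± 0.27. Isg15, the gene of the ubiquitin-like protein that Usp18 removes, was nearly level at -0.06 ± 0.20. Bst2, the tetherin that holds budding virus at the membrane, was the exception in direction at 0.53 ± 0.18 (adjusted p = 0.122 in limma-voom), and it was called with quality weights and without tumor 3. Its groups overlapped, at 58.5 to 122 CPM in negative and 36.8 to 67.5 CPM in positive libraries.

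**Figure D3:**
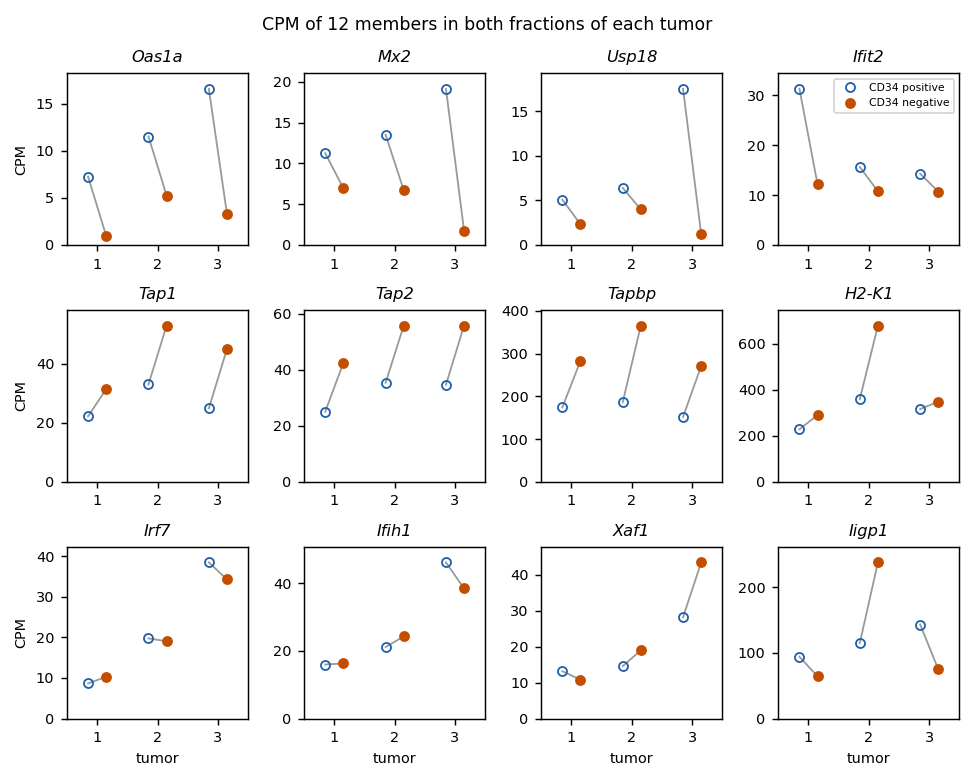
CPM (vertical axis, from 0) of 12 members in both fractions of each of the 3 tumors (horizontal axis), with CD34 positive as open blue and CD34 negative as filled orange circles joined within a tumor. Lines fall in all 3 tumors for Oas1a, Mx2, Usp18 and Ifit2 and rise in all 3 for Tap1, Tap2, Tapbp and H2-K1, while Irf7, Ifih1 and Xaf1 climb from tumor 1 to tumor 3 in both fractions and Iigp1 falls, rises and falls.

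Regulators, the transcription factors of the response, did not pass with or without the block on all libraries at equal weight. Irf9 had the lowest value, a log2 fold change of -0.58 ± 0.25 with the block (adjusted p = 0.195 in limma-voom), and was lower in the negative library of each tumor. Irf9 was called with the block without tumor 2. Irf9 was at 33.3, 31.7 and 16.8 CPM in negative and at 47.3, 32.5 and 46.1 CPM in positive libraries, so tumor 2 was nearly level. Stat2 and Irf1 had -0.31 ± 0.20 and -0.33 ± 0.21. Irf7, the amplifier of type I interferon, had -0.07 ± 0.19. Nlrc5, the transactivator of class I genes, ran in the class I direction at 0.59 ± 0.44, at 1.73, 6.95 and 7.37 CPM in negative and 1.18, 2.56 and 9.0 CPM in positive libraries. It was called with the block with quality weights and without tumor 3, as was Ifi27. The RNA sensors Ifih1 and Ddx58, which detect viral RNA in the cytoplasm, had log2 fold changes with the block of -0.02 ± 0.18 and -0.002 ± 0.15. Among other interferon-induced genes, Ifi27, Ifi35, Ifi44 and Xaf1, the log2 fold changes with the block ranged from -0.37 to 0.43 and none passed. Ifi27 overlaps its relative Ifi27l2a, which held 3603 counts against 29532.

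The interferon-inducible GTPases, which attack the vacuoles of intracellular pathogens, differed between tumors in direction. In tumor 1 all 6 were lower in the negative library, in tumor 2 none was, and in tumor 3 5 of 6 were. Iigp1 showed it most, at 64.2, 238 and 75.1 CPM in negative and 94.3, 115 and 143 CPM in positive libraries. Its log2 ratios were -0.55, 1.05 and -0.93. Gbp2 followed with -0.44, 1.04 and -0.49. Over the 3 tumors these ratios nearly cancelled, so that the median log2 fold change of the 6 was -0.17 without and -0.005 with the block, and no member passed with all tumors. Without tumor 2, Iigp1 and Irgm1 were called with the block. Over all 34 members the median log2 ratio was -0.31 in tumor 1, 0.23 in tumor 2 and -0.35 in tumor 3, and the negative library was lower for 23, 11 and 24 members. With 1 library per fraction and tumor, whether the difference between fractions itself differed between tumors could not be tested.

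**Figure D4:**
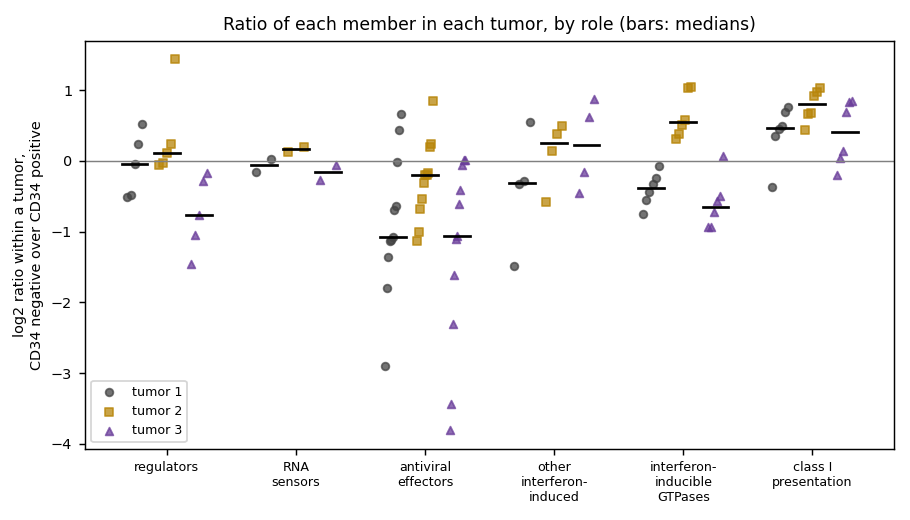
Log2 ratio of CD34 negative over CD34 positive within each tumor (vertical axis) for the members of each role (horizontal axis), 1 mark per gene with the tumor given by shape and colour and the median as a black bar. GTPases lie above 0 in tumor 2, below 0 in tumor 1, and below 0 for 5 of 6 in tumor 3, while class I medians are above 0 in each tumor at 0.47, 0.80 and 0.41.

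How much of each member's level went with the tumor was asked next. For every member, the variance of log2 CPM over the 6 libraries was split into fraction, tumor and remainder. The medians over the members were 24.1% for the fraction, 56.4% for the tumor and 12.9% for the remainder, beside 20.6%, 45.5% and 19.6% over all genes tested. With 3 tumors and 2 fractions the tumor has more degrees of freedom, so a larger tumor share is usual. The fraction's share was 87.2% for Tapbp, 74.0% for Tap2, 63.3% for Oas1a and 62.2% for Usp18. It was under 0.5% for Irf7, Ifih1, Ddx58, Isg15, Gbp2, Igtp and B2m.

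An F test of the tumor term, with the fraction in the model, called Irf7, Ifih1 and Xaf1. These 3 are 8.82% of the members, where 4.03% of all genes tested were called. Irf7 was at 10.3, 19.1 and 34.3 CPM in negative and at 8.67, 19.8 and 38.5 CPM in positive libraries 1, 2 and 3. The order of the tumors was thus the same in both fractions, and the tumor took 98.8% of its variance (adjusted p = 0.0161 in limma-voom). Ifih1 was at 16.3, 24.3 and 38.5 CPM against 16.0, 21.1 and 46.1 CPM, with 97.3% of its variance (adjusted p = 0.033 in limma-voom). Xaf1, a pro-apoptotic interferon target, was at 10.8, 19.0 and 43.5 CPM against 13.2, 14.6 and 28.2 CPM, with 89.1% (adjusted p = 0.0213 in limma-voom). All 3 were lowest in tumor 1 and highest in tumor 3.

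Tumor 1 had the lowest mean log2 CPM of the 3 tumors for 24 of the 34 members (70.6%), where it was lowest for 31.4% of all genes tested. Tumors 2 and 3 were highest for 15 members each. The 6 class I genes were all highest in tumor 2, whereas 6 of 11 antiviral effectors and 3 of 5 regulators were highest in tumor 3. These counts are descriptions, with no test. The call of 3 members for the tumor term was not stable. When 1 library was left out, which leaves 1 tumor with a lone library, it changed with the library, as did the count over all genes. edgeR called 1 member (Irf7), which is 2.94% beside 1.12% of genes. DESeq2 called 12 members, which is 35.3% beside 10.7% of genes. Without negative library 1, Irf7, Ifih1 and Xaf1 were not among the 3 that passed. The tumors were numbered without any trait in the labels, so nothing else is known of how they differed.

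**Figure D5:**
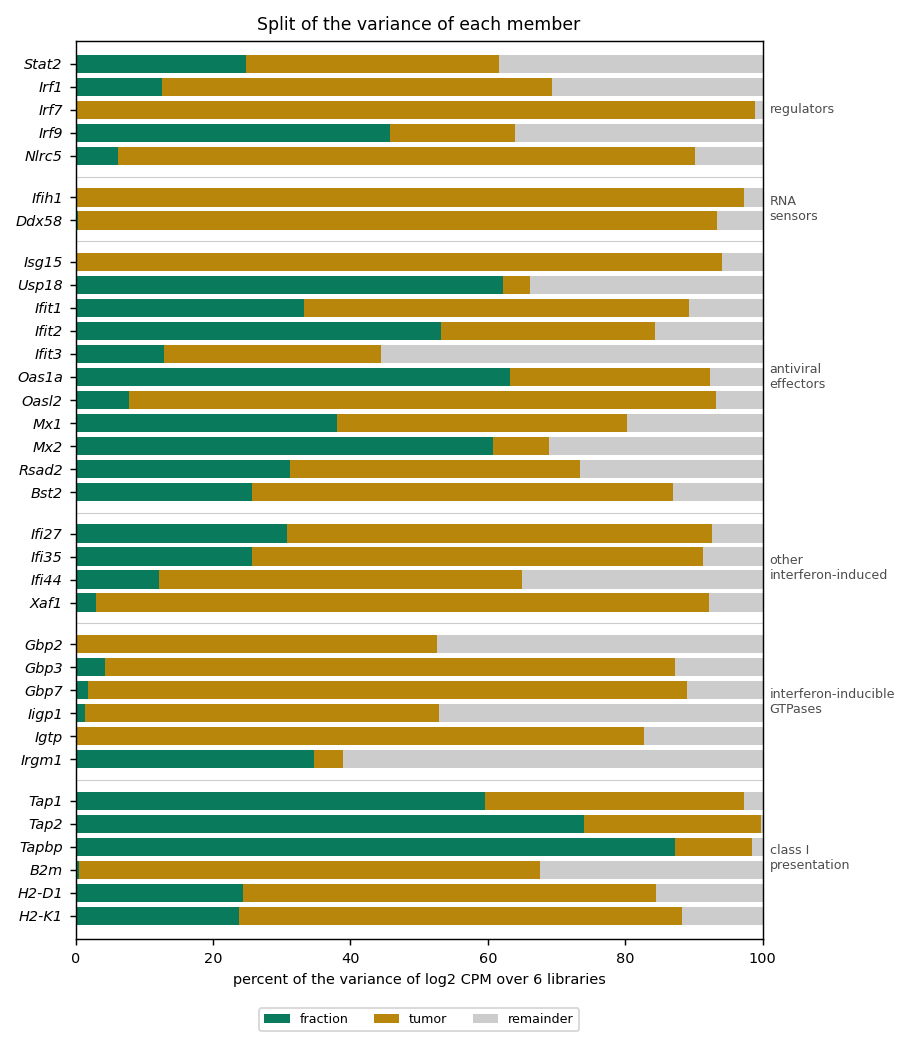
Share of the variance of log2 CPM over the 6 libraries (horizontal axis, percent) that goes with the fraction (green), the tumor (gold) and the remainder (grey), for each member (rows, by role). Green fills most of the bar for Tapbp (87.2%) and Tap2 (74.0%) and is nearly absent for Irf7 and Ifih1, where gold takes 98.8% and 97.3%.

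Other genes of the pathway were read from lists written from general knowledge. Of 13 interferon and related ligand genes, 7 had no count in any library and none had enough counts to be tested. Ifnb1, interferon beta, had counts in negative library 2 alone, at 0.0221 CPM. Ifng, interferon gamma, had 13 counts in positive library 2 (0.152 CPM), 1 count in negative library 1 and none elsewhere. The ligand gene Ifnab had 14 and 2 counts in these same libraries. Ifnz had counts in both groups, at up to 0.318 CPM. A library's 3 counts correspond to between 0.0346 and 0.185 CPM, so lower ligand levels were not detectable at this depth. The receptors were expressed. Ifnar1, Ifnar2, Ifngr1 and Ifngr2 had RPKM of 13.6, 21.0, 53.7 and 29.7, and none of these 4 passed. The lambda receptor Ifnlr1 was at 0.712 CPM or less. Of the 10 receptors and kinases tested, Jak1, the kinase shared by the type I and II receptors, fell, and did so only with the block. Its log2 fold change was -0.53 ± 0.14 (adjusted p = 0.0463 in limma-voom), at 437, 355 and 320 CPM against 523, 516 and 551 CPM. Without the block the adjusted p was 0.245 in limma-voom. Of the 9 alternatives with the block 5 passed, the highest adjusted p being 0.213 in limma-voom without tumor 2.

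Among 48 further interferon-induced genes, 44 were tested. With the block 6 of these fell and 3 rose in CD34 negative CAFs, where 4.25% of all genes tested fell and 4.32% rose. The median log2 fold change of the 44 with the block was -0.24. Of these 9 called genes, the 6 with the largest change were Cxcl10, Tgtp1, Ifi204, Oas2, Ifi205 and Phf11d. Cxcl10, a chemokine for T cells, fell by 1.80 on the log2 scale (SE 0.38, adjusted p = 0.0202 in limma-voom), at 27.7, 42.2 and 24.3 CPM against 64.2, 74.9 and 228 CPM. Ifi204 and Ifi205 are members of a DNA-binding family with close copies. Ifi204 was at 73.3, 65.5 and 109 CPM against 182, 166 and 346 CPM, a log2 fold change of -1.44 ± 0.13 (adjusted p = 0.000529 in limma-voom). Ifi205 had -1.20 ± 0.19 (adjusted p = 0.00674 in limma-voom). Both, and Phf11d at -1.09 ± 0.21, passed in all 9 alternatives with the block. Cxcl10 passed in 8 of them. Oas2, a relative of Oas1a, had -1.36 ± 0.32 (adjusted p = 0.0303 in limma-voom), and it passed in 5 of 9 alternatives, with adjusted p of 0.0555 without tumor 1, 0.260 without tumor 2, 0.0624 in edgeR and 0.0750 without the low-count filter. The GTPase Tgtp1 rose by 1.48 ± 0.33, but its fold change was 0.59 without tumor 2, at an adjusted p of 0.749 in limma-voom. Tgtp1 passed in 5 of 9 alternatives, with adjusted p of 0.311 in edgeR, 0.196 in DESeq2 and 0.0577 without the low-count filter. Tgtp1 has a near-identical copy, so its counts are uncertain.

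Around class I presentation, further lists were read. Of 9 genes of the immunoproteasome and of peptide loading, such as Psmb8, Psmb9 and Calr, none passed with or without the block, and their median log2 fold change with the block was 0.07. The same held in edgeR and DESeq2, and none of the 9 had an unadjusted p under 0.05 in any of these fits. The 10 nonclassical class I genes tested had a median of 0.35 with the block. Of these, H2-T23, whose product is a ligand of natural killer cell receptors, rose by 0.96 ± 0.17 with the block (adjusted p = 0.00893 in limma-voom). It was at 94.7, 142 and 183 CPM in negative and at 70.9, 61.7 and 85.8 CPM in positive libraries, and it passed in 8 of the 9 alternatives with the block, where adjusted p lay between 0.000119 and 0.0502. Of 6 negative regulators, Ptpn2, a phosphatase of JAK kinases, fell by 0.59 on the log2 scale (SE 0.14, adjusted p = 0.0336 in limma-voom with the block), and passed in 5 of 9 alternatives. Its adjusted p was 0.0778 without tumor 1, 0.356 without tumor 2, 0.0784 in edgeR and 0.0912 without the low-count filter, and Socs1 and Socs3 did not pass. None of 7 class II genes passed in limma-voom, edgeR or DESeq2 and 1 had an unadjusted p under 0.05 in each. Over all 14855 genes tested, 2128 had such a p in limma-voom without the block and 3460 with it. Cd74, the invariant chain, was at 6.75 to 11.5 CPM against 2.65 to 6.68 CPM, and the part of other cell types in it was not tested. The 13 nucleic acid sensing genes included no call between the fractions in limma-voom or edgeR, and DESeq2 with the block called Zbp1, a sensor of nucleic acids, alone. With the block, 3 of the 13 had an unadjusted p under 0.05 in limma-voom. Beside the 3460 of 14855 genes given above, this share is near the background.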

How the data were processed

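Gene expression of CAFs sorted from 3 raGFP-Wnt1 tumors was analysed in 6 libraries. Libraries were made with a TruSeq RNA v2 protocol, which does not mark strand, so overlapping genes on opposite strands cannot be told apart. The deposited values are raw counts per NCBI gene. Per the labels, the authors counted reads with featureCounts on GRCm38, and replicates were kept apart. How reads with several matches were handled is not given in the sources used here. The sample titles gave each library's group and tumor number.

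The main test used steps named in the study's methods: filterByExpr (here with minimum count 10), TMM, voom and limma. It was two-sided, with Benjamini-Hochberg adjustment over 14855 genes and a threshold of 0.05. The study's methods name no tumor term, and genes with no annotation were removed there. Its list of genes higher in CD34 negative CAFs was longer than the 3 genes called higher here without the block. Fold changes are CD34 negative minus CD34 positive on the log2 scale. CPM values of single genes take both library size and TMM factor into account, and RPKM values gene length too, while sums over marker lists use the library total alone. Software was limma 3.58.1, edgeR 4.0.16 and DESeq2 1.42.0 in R 4.3.3. Replicates differed by far more than sampling noise, with a chi-square per gene between 137 and 255. Pairing by tumor number follows from the labels, in which 1 tumor gave both fractions. Deviations from the group means correlated at 0.373, 0.350 and 0.219 for tumors 1, 2 and 3. Values with the tumor as block are given throughout, because they change calls. The tumor term was tested with an F test.

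The members and lists were chosen with earlier results of these data known. Text names every member and, of other lists, called genes, at most 6 per list by largest change with the block, the receptors and ligands needed to say which were detected, and abundant markers. Promoter windows and gene positions are those of RefSeq GRCm38.p6. Genes without a symbol numbered 1310 and were kept. Alternatives covered the test, the normalization, the filter, sample weights, symbols, each library, each tumor and the promoter window. The tests were tried on simulated data. The floor of 3 counts per library covers counting error only.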

Additional observations from a re-analysis of the deposited data

How the results depend on the processing

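Between the fractions, the 18 genes called without the block became 9 in edgeR, 698 in DESeq2, 161 with sample quality weights and 0 to 86 when a library or a tumor was left out. The members called stayed at 0, except for 3 in DESeq2. With the replicate block 1273 genes and 4 members were called, and Igtp turned to 0.076. In blocked fits, edgeR called 575 genes and 2 members, DESeq2 7 members, no low-count filter 802 genes and 1 member, and quality weights, an alternative chosen after seeing the data, 2904 genes and 12 members. Leaving out a tumor gave 851 to 2019 genes and 2 to 11 members with the block. For the tumor term, edgeR called 167 genes and 1 member, DESeq2 1534 genes and 12 members, and fits without 1 library 686 to 5180 genes and 3 to 20 members. A lone library of a tumor is then assumed to vary like the others. The cause of these shifts was not tested. RLE normalization and genes with a symbol only left the counts within 1.5 times. Of 736 single-gene values without the block (34 members and 12 other genes), 658 kept direction and side of the threshold, 24 passed and 54 changed sign, none in a gene called between the fractions. Of 144 values of the 16 genes called with the block, 105 still passed, 39 did not, and none changed sign. Without the block, log2 fold changes on leaving out a library or tumor ranged from -0.29 to 0.20 for B2m, -0.17 to 0.12 for Ddx58, -0.46 to 0.43 for Gbp2, -0.74 to 0.15 for Gbp3, -0.28 to 0.51 for Gbp7, -1.19 to 0.19 for Ifi44, -0.37 to 0.29 for Ifih1, -0.56 to 0.25 for Ifit3, -0.56 to 0.21 for Igtp, -0.76 to 0.26 for Iigp1, -0.63 to 0.052 for Irf1, -0.57 to 0.28 for Irf7, -0.44 to 0.12 for Isg15, -0.52 to 1.21 for Nlrc5 and -0.30 to 0.70 for Xaf1. Further sign changes were 0.10 for Iigp1 and 0.011 for B2m in edgeR, 0.083 for Iigp1 in DESeq2, and -0.16 for Xaf1, -0.0043 for Gbp7, 0.24 for Iigp1 and 0.10 for B2m with quality weights. The ISRE core in 48.1% and the GAS core in 22.2% of members in the 250 upstream bases compare with 55.6% and 25.9% in the whole window. Depth limits the ligands, Mx1 and Ifi44.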
